A study of Glycine max with 8 samples.

Results

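The 150 genes described here were the soybean nodule genes whose transcript levels stood highest in libraries R3 and R4 relative to R1 and R2, the other libraries of the same treatment. They were taken from 43517 genes, of which 19405 had a mean of at least 5 CPM (counts scaled by the library total) over all 8 libraries. For each of these, the score was the log2 ratio of the lowest CPM of R3 and R4 to the highest CPM of R1 and R2, with 1 CPM added to each, and the 150 highest scores were kept. The members were thus chosen by the CPM of R1 to R4 and, through the minimum mean, of all 8 libraries, and their difference between R3 and R4 on one side and R1 and R2 on the other is given as a description, without a test. The open question was where the other treatment, BR, lay for these genes.

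RNA came from nodules of soybean (Glycine max) plants kept at low nitrogen. Group BR (BR1 to BR4) had received the strain labelled Bac.B together with the strain labelled Bra.Q2. Group R (R1 to R4) had received Bra.Q2 alone, so that low nitrogen and Bra.Q2 were common to both groups. The labels give no cultivar, plant age or batch, and do not tell whether replicates are separate plants or pools. P-values therefore measure only how far these libraries differ, which may be technical. Tissue markers could not be checked, because no source used here pairs the Wm82.a2.v1 identifiers with gene names or functions, and the tissue is taken from the labels.

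A nodule is a root organ built by a legume around nitrogen-fixing bacteria. Infected plant cells house the bacteria, supply them with carbon from the shoot, and take up the ammonium they release, while leghemoglobin keeps free oxygen low. Nodules pass through development, active fixation and senescence, and a root carries nodules of different ages. In bulk RNA of such an organ, fewer cells of a type and less RNA per cell cannot be told apart.

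Library totals ranged from 15133989 to 17287964 counts in BR and were 14223489 in R3, 14674869 in R4, 15266510 in R1 and 14829669 in R2. R3 and R4 stood apart from R1 and R2 over the whole table. Log2 CPM correlated at 0.975 between R3 and R4 and at 0.968 between R1 and R2, but at 0.903 to 0.946 between an R3 or R4 library and an R1 or R2 library. Within BR the correlations lay between 0.955 and 0.981. Differences of this kind ran in both directions. A score of at least 1 was reached by 306 of the 19405 genes, and 400 genes reached it when R1 and R2 were set over R3 and R4.

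The share of the transcripts taken by the members was intermediate in the BR libraries and closer to R1 and R2 than to R3 and R4. All 150 together made up 0.519%, 0.531%, 0.498% and 0.542% of the counts in BR1 to BR4. They made up 1.46% in R3 and 1.54% in R4, against 0.425% in R1 and 0.322% in R2. All 4 BR libraries lay above R1 and R2 and below R3 and R4, and they lay close together. The median member had 12.5, 12.0, 12.8 and 14.9 CPM in BR1 to BR4, 32.3 and 34.4 CPM in R3 and R4, and 8.22 and 6.74 CPM in R1 and R2. Over all 19405 eligible genes the library medians differed far less, from 17.2 to 17.9 CPM in BR, 17.1 and 16.6 CPM in R3 and R4, and 15.5 and 15.8 CPM in R1 and R2.

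**Figure D1:**
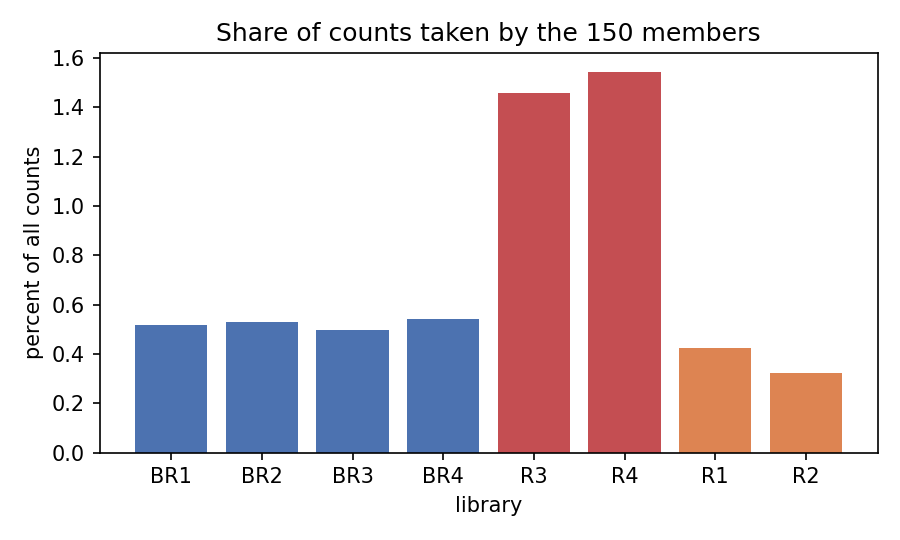
Percent of all counts taken by the 150 members (vertical axis) in each library (horizontal axis), with 1 bar per library. The BR libraries lie between 0.498% and 0.542%, R3 and R4 at 1.46% and 1.54%, and R1 and R2 at 0.425% and 0.322%.

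Scores of the members ranged from 1.30 to 3.33 with a median of 1.63. On the CPM themselves, the lowest of R3 and R4 was 2.48 to 27.4 times the highest of R1 and R2, with a median of 3.31. It was at least 3-fold in 96 members, at least 4-fold in 50 and at least 8-fold in 6. The last member inside the limit, on chromosome 10, had 3.17, 5.67, 8.68 and 6.50 CPM in BR1 to BR4, 13.6 and 16.3 CPM in R3 and R4, and 4.32 and 4.92 CPM in R1 and R2. The first gene outside it, on chromosome 5, had 22.3, 22.1, 28.0 and 25.7 CPM in BR1 to BR4, 36.3 and 34.4 CPM in R3 and R4, and 13.4 and 11.3 CPM in R1 and R2. Both had a score of 1.30 after rounding, so the limit marks no step in the values.

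The members were not confined to rare transcripts. Mean levels over the 8 libraries ran from 5.01 to 1051 CPM with a median of 20.3 CPM, beside 17.1 CPM for all eligible genes. Per length, mean levels ran from 1.08 to 647 FPKM, which also divides by gene length, with a median of 10.2 FPKM. No member had 0 counts in any library. The lowest count of a member in R3 or R4 was 64, whereas in R2 the median member had 100 counts and 3 members had fewer than 10.

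Among the highest scores were 2 genes that were close to silent outside R3 and R4. The member with the highest score, on chromosome 14, had 0.529, 0.289, 0.121 and 0.541 CPM in BR1 to BR4, against 43.0 CPM in R3, 14.4 CPM in R4, 0.524 CPM in R1 and 0.270 CPM in R2. All 4 BR libraries, R1 and R2 lay below 1 CPM. The fourth-ranked member, on chromosome 6, had 0.330, 0.463, 0.241 and 0.241 CPM in BR1 to BR4, against 120.6 CPM in R3, 15.3 CPM in R4, 1.24 CPM in R1 and 0.472 CPM in R2. Here R3 alone was far above every other library, R4 included. These were the only 2 members that failed the filter on low counts in the comparison of all 8 libraries, which asks for enough reads in 4 libraries.

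Other members with high scores were detected in BR at various levels. The member of rank 2, on chromosome 3, had 1.92, 0.752, 3.32 and 2.23 CPM in BR1 to BR4, 20.5 and 21.1 CPM in R3 and R4, and 1.31 and 0.337 CPM in R1 and R2. Its log2 fold change of BR over R was -2.58 (SE 1.00) and was not called (edgeR quasi-likelihood test, adjusted p = 0.0998). It was called lower without R2 (-2.98, edgeR adjusted p = 0.0181) and without R1 and R2 (-3.51, edgeR adjusted p = 0.000468), and without R3 and R4 the log2 fold change was 1.10 (edgeR adjusted p = 0.314). The member of rank 10, also on chromosome 3, had 12.1, 14.5, 12.6 and 15.3 CPM in BR1 to BR4, 25.3 and 44.8 CPM in R3 and R4, and 4 and 3.57 CPM in R1 and R2. All 4 BR libraries fell between the R libraries in this gene.

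The 3 most abundant members were lower in BR than the R mean, which contains R3 and R4, and 1 of the 3 was also called lower without that pair. The most abundant, on chromosome 4, had 509, 349.7, 413 and 414 CPM in BR1 to BR4, against 2574 and 2848 CPM in R3 and R4 and 814 and 487 CPM in R1 and R2. BR1 lay just above R2, and the other BR libraries lay below all R libraries. Its log2 level fell in BR by 2.18 (SE 0.50; adjusted p = 0.0168 from edgeR). Without R3 and R4 it gave -0.82 (SE 0.25; edgeR adjusted p = 0.0657), which did not pass. The next, on chromosome 6, had 244, 212, 203 and 193 CPM in BR1 to BR4, against 1224 and 1108 CPM in R3 and R4 and 389 and 274 CPM in R1 and R2. It was separated without overlap and fell by 2.00 (SE 0.44; edgeR adjusted p = 0.0139). Without R3 and R4 it was still lower, at -0.83 (SE 0.20; edgeR adjusted p = 0.0328). The third in abundance, on chromosome 17, fell by 2.16 (SE 0.55; edgeR adjusted p = 0.0244), with 178, 109.7, 162 and 164 CPM in BR1 to BR4, 806 and 1186 CPM in R3 and R4, and 269.9 and 153 CPM in R1 and R2. Without R3 and R4 it gave -0.66 (SE 0.27; edgeR adjusted p = 0.147), which did not pass. Not all abundant members were so. The sixth, on chromosome 6, had 267, 240.3, 203 and 280.4 CPM in BR1 to BR4, 307 and 443 CPM in R3 and R4, and 68.9 and 56.4 CPM in R1 and R2. Its log2 fold change came to -0.0048 (SE 0.56; edgeR adjusted p = 0.996), with BR above R1 and R2 and below R3 and R4.

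**Figure D2:**
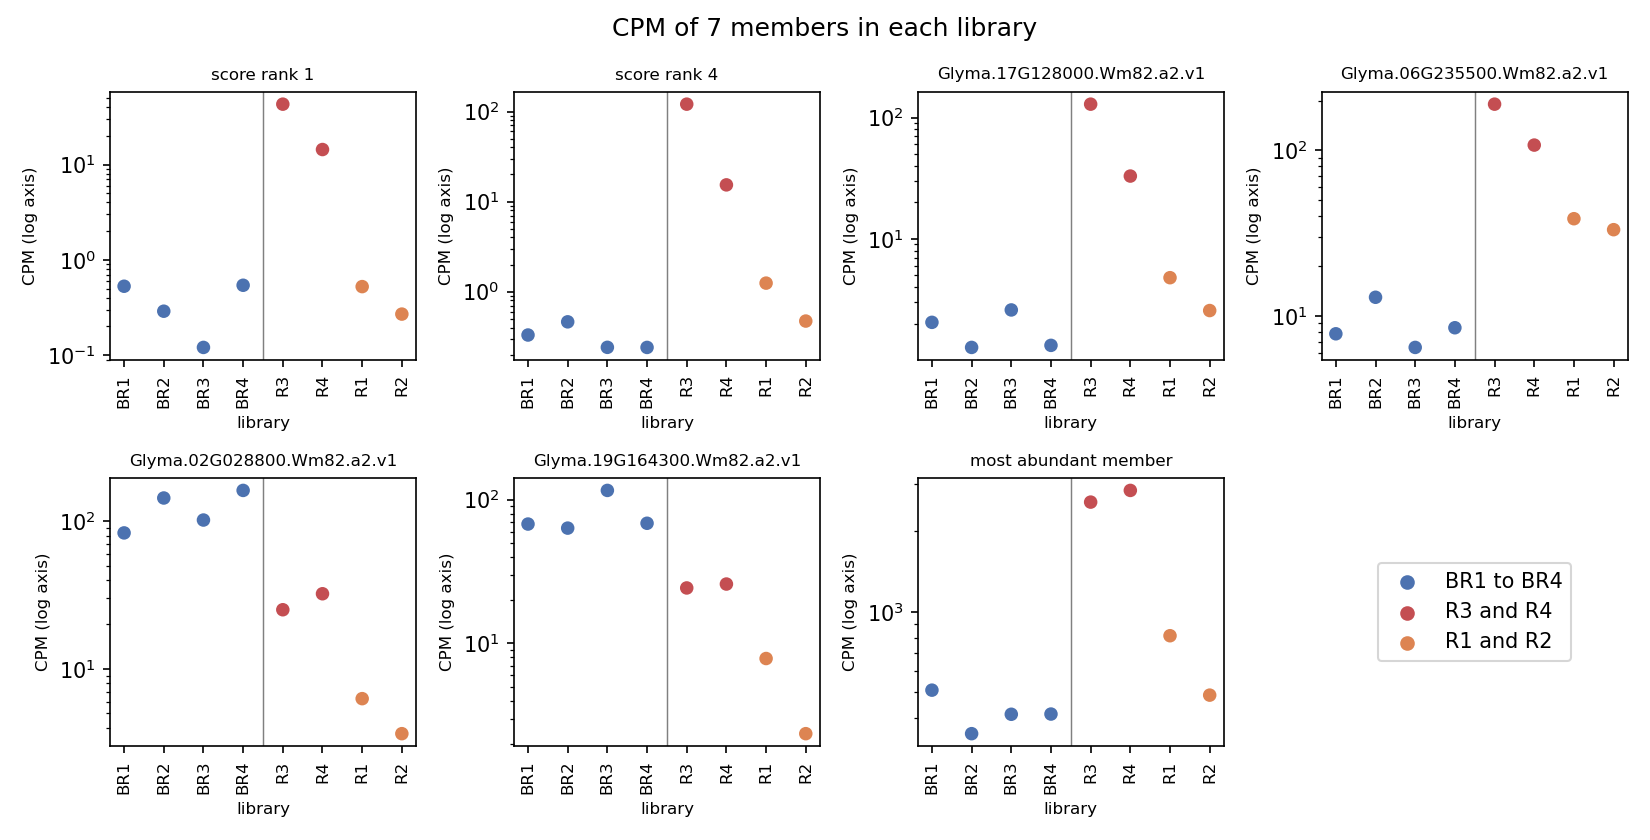
CPM on a log axis (vertical) in each library (horizontal) for 7 members, with 1 point per library and a line between BR and R. The members of rank 1 and rank 4 are below 2 CPM outside R3 and R4. Glyma.06G235500.Wm82.a2.v1 is lowest in BR, and so is Glyma.17G128000.Wm82.a2.v1 except that BR3 lies just above R2. Glyma.02G028800.Wm82.a2.v1 and Glyma.19G164300.Wm82.a2.v1 are highest in BR.

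To place BR over all members, each BR library was given a position for each gene on the log2(CPM + 1) scale, with 0 at the mean of R1 and R2 and 1 at the mean of R3 and R4. Over the 150 members BR1 had a median position of 0.175, BR2 of 0.213, BR3 of 0.291 and BR4 of 0.301. A BR library was nearer to R1 and R2 than to R3 and R4 in 104, 105, 104 and 99 members in BR1 to BR4, or 68.7% ± 1.81 of the members (SD, n = 4). The positions spread widely over genes. The mean position of the 4 BR libraries was below 0 in 48 members, from 0 to 0.5 in 53, from 0.5 to 1 in 38 and above 1 in 11. It did not follow the score, with medians of 0.262 for the 50 highest scores, 0.161 for the next 50 and 0.295 for the last 50. For the 150 genes chosen the same way for R1 and R2 over R3 and R4, 75.8% ± 13.0 (SD, n = 4) were also nearer to R1 and R2, so that BR lay on the side of R1 and R2 in both lists. The difference between the lists was not tested.

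**Figure D3:**
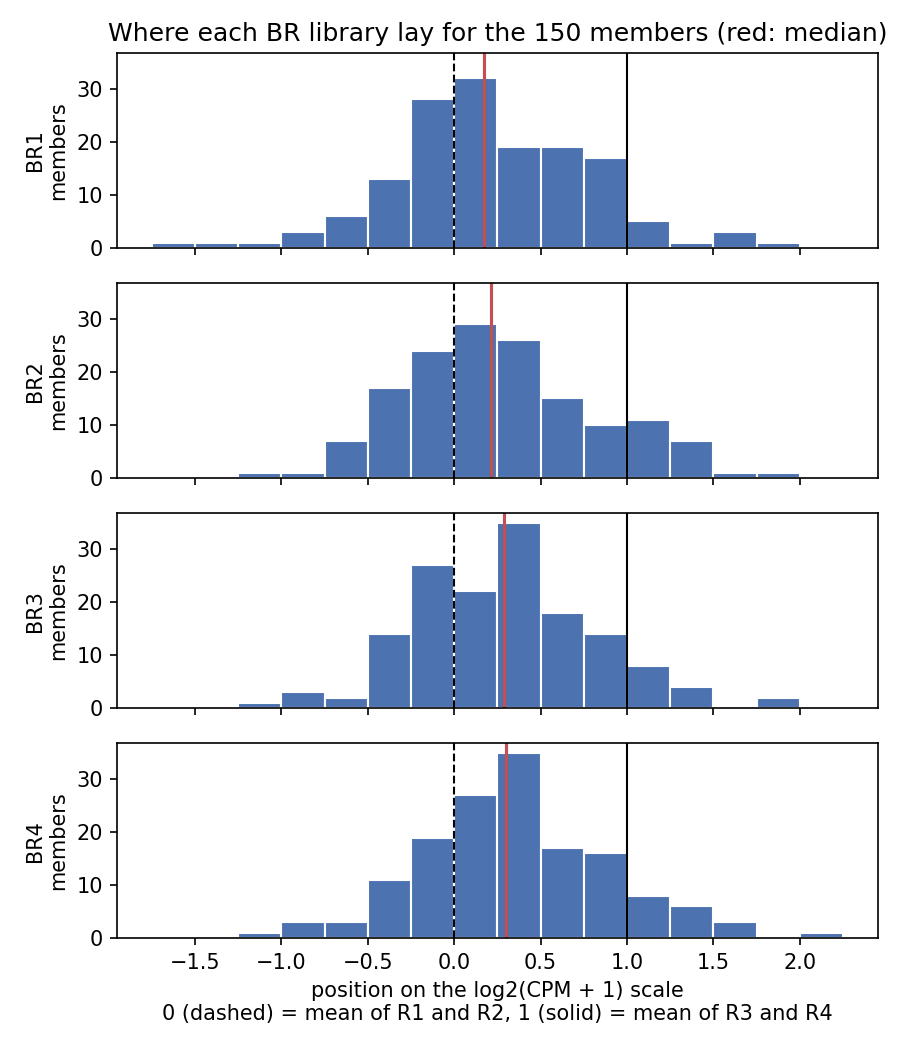
Number of members (vertical axis) by the position of each BR library on the log2(CPM + 1) scale (horizontal axis), with 1 panel per BR library. The medians, drawn in red, lie from 0.175 to 0.301, nearer to the mean of R1 and R2 (0, dashed) than to the mean of R3 and R4 (1, solid).

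The members fell into several patterns of BR. In 32 members all 4 BR libraries were at or below the higher of R1 and R2, and in 43 some BR libraries were there and the others between the R pairs. All 4 BR libraries lay strictly between the R pairs in 40 members. In 23 members they were partly between and partly at or above the lower of R3 and R4, and in 10 members all 4 were at or above it. The remaining 2 members had BR libraries in all 3 ranges. With libraries scaled by TMM factors (which correct library totals for composition), 48 members in place of 32 had all 4 BR libraries at or below the higher of R1 and R2, 36 in place of 40 had all between, and 6 in place of 10 had all at or above the lower of R3 and R4.

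**Figure D4:**
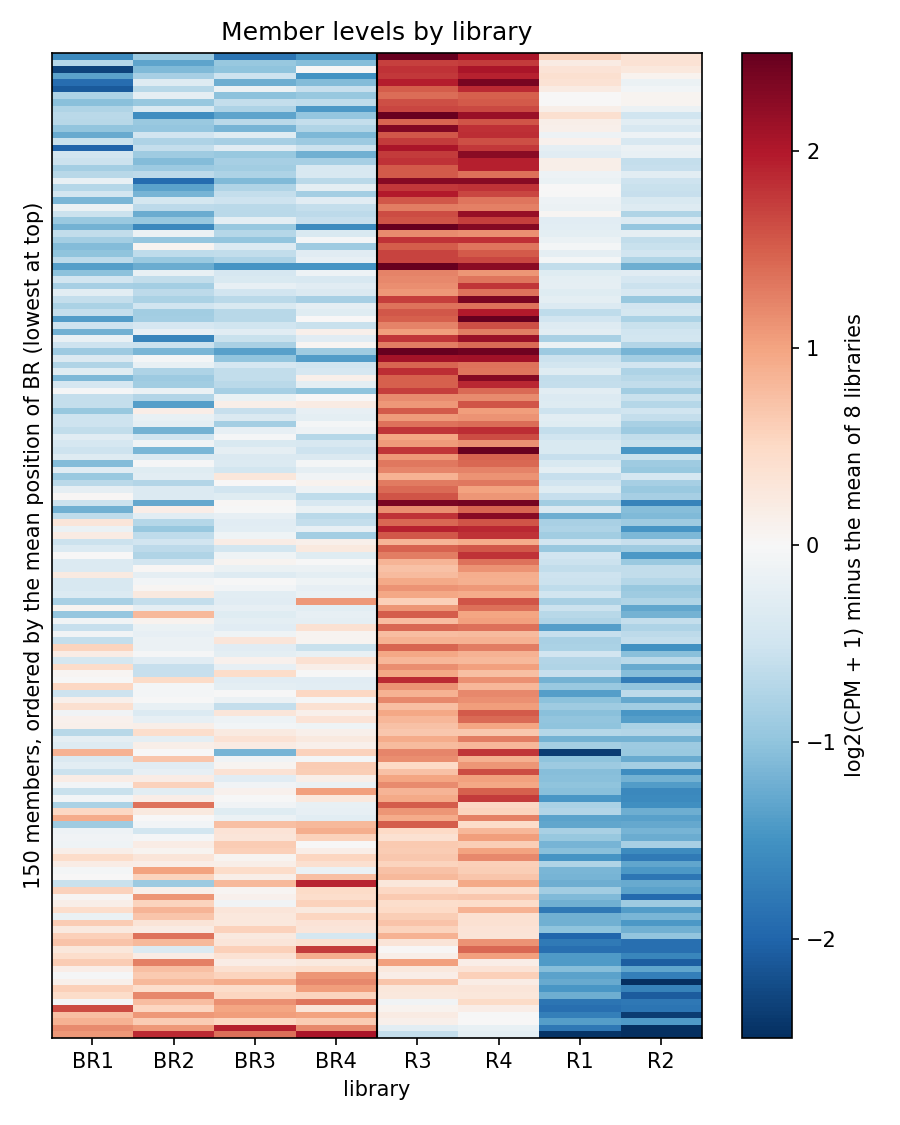
Log2(CPM + 1) of the 150 members (rows, ordered by the mean position of BR) in each library (columns), minus the mean over the 8 libraries. R3 and R4 lie above R1 and R2 in all 150 rows, as the choice of genes required. At the top, BR1 to BR4 lie near or below R1 and R2 (48 members with a mean position below 0). At the bottom, the mean of BR1 to BR4 lies above the mean of R3 and R4 (11 members with a mean position above 1).

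BR was compared with R over all genes with edgeR's quasi-likelihood test, and 148 members entered it. Of these, 41 fell in BR and 2 rose, at a Benjamini-Hochberg adjusted p below 0.05. Over all 29508 tested genes 10.3% were lower and 7.98% higher in BR, or 18.3% called in either direction. The members' median log2 fold change was -0.99, beside -0.02 over all tested genes, and 119 of the 148 had a negative one. The R mean in this comparison contains R3 and R4, which the choice of members made high, so nothing about the members is read from these shares. The same choice made R variable. The median standard error was 0.52 for members and 0.23 for all tested genes. With total-count scaling 32 members fell and 3 rose, or 23.6% of the members beside 20.4% of all tested genes. Higher genes then made up 71.2% of all calls, beside 43.5% with TMM. DESeq2 called 60 lower and 5 higher members, or 43.9% of the members beside 24.4% of all tested genes. Limma-voom called 18 and 4, or 14.9% beside 18.1%. Leaving out BR3 gave 15 called members, or 10.1% of the members beside 9.55% of all tested genes. Without BR4 there were 17 (11.4% beside 9.61%), without BR1 19 (12.8% beside 11.6%) and without BR2 23 (15.4% beside 14.6%). Without R3 there were 24 (16.2% beside 11.7%) and without R4 20 (13.5% beside 11.2%). Without R2 there were 78 (52.3% beside 24.4%) and without R1 52 (35.1% beside 13.1%).

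Each pair of R libraries was therefore also left out in turn. Without R3 and R4, 43 of 148 members rose in BR and 10 fell, beside 5.35% higher and 6.16% lower over all genes. Without R1 and R2, 119 of 150 members fell and 3 rose, beside 16.4% lower and 16.7% higher over all genes. The choice of members made R1 and R2 low and R3 and R4 high, so a rise against the first pair and a fall against the other were favoured. The median log2 fold change of the members was 0.40 without R3 and R4 and -1.71 without R1 and R2, beside 0.02 and 0.05 over all tested genes. In 17 members BR was called higher without R3 and R4 and lower without R1 and R2. In 10 members BR was lower in both comparisons, and in 3 members it was higher in both. In both of these sets BR differed from each R pair in the same direction. The shares of all tested genes called in both comparisons were not computed, so these counts are given as a description.

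**Figure D5:**
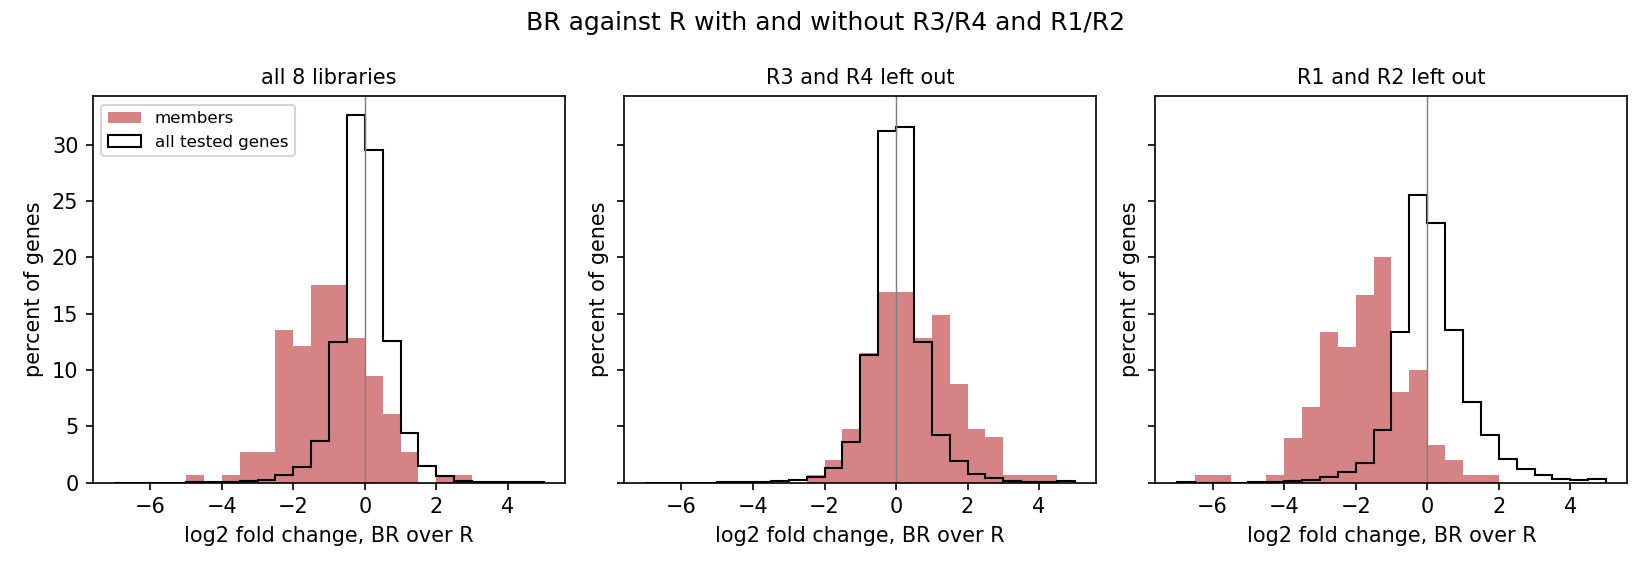
Percent of genes (vertical axis) by log2 fold change of BR over R (horizontal axis) for the members (filled) and all tested genes (outline), with all 8 libraries, without R3 and R4, and without R1 and R2. The members' medians are -0.99, 0.40 and -1.71, and values of all genes beyond the axis are counted in the outermost bins.

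The size of the fall in the 41 members depended on R3 and R4. Their median log2 fold change was -2.08 with all R libraries and -0.79 without R3 and R4, where all 41 kept a negative value and 10 were called. The 41 were picked as lower with the same BR, R1 and R2 libraries, so the kept sign is a description and no separate check. Of the 41, 17 were separated from R without overlap. Over the whole list, 18 members had all BR libraries below all R libraries in CPM, beside 6.91% of the tested genes. Among the 18 was the fourth-ranked member, which was not tested. Another 7 had all BR libraries above all R libraries, beside 19.2%. The choice of members made R3 and R4 high and R1 and R2 low, which bears on both counts, so nothing about the members is read from them. With TMM-scaled CPM these counts were 29 and 5. The shares over all tested genes were not computed on that scale, so the 2 shares above do not apply to these counts.

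Glyma.17G128000.Wm82.a2.v1, on chromosome 17, had the largest fall among the tested members. It had 2.05, 1.27, 2.59 and 1.32 CPM in BR1 to BR4, against 128.9 CPM in R3, 32.9 CPM in R4, 4.78 CPM in R1 and 2.56 CPM in R2. BR3 lay just above R2, so that the groups overlapped. The fold change was -4.72 on the log2 scale (SE of 1.12; edgeR adjusted p = 0.0192), but without R3 and R4 it was -1.22 (SE 0.39; edgeR adjusted p = 0.0750), which did not pass. It did not pass either without BR1, BR3 or BR4 (edgeR adjusted p of 0.0559, 0.0524 and 0.0587) or with limma-voom (adjusted p = 0.163).

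Glyma.06G235500.Wm82.a2.v1, on chromosome 6, was lower in BR than in every R library. It had 7.80, 13.0, 6.45 and 8.48 CPM in BR1 to BR4, against 190.1 CPM in R3, 107.6 CPM in R4, 38.6 CPM in R1 and 33.2 CPM in R2. The groups did not overlap, and the highest BR library was well below the lowest R library. The difference came to -3.55 on the log2 scale (SE of 0.55; edgeR adjusted p = 0.00399). It was still lower without R3 and R4, by -2.19 (SE 0.25; edgeR adjusted p = 0.00195).

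Both members that rose were higher in BR than in R3 and R4. Glyma.02G028800.Wm82.a2.v1, on chromosome 2, had 83.5, 143.9, 102 and 161.9 CPM in BR1 to BR4, against 25.2 CPM in R3, 32.3 CPM in R4, 6.29 CPM in R1 and 3.64 CPM in R2. Every BR library was above every R library. The fold change was 2.68 on the log2 scale (SE of 0.60; edgeR adjusted p = 0.0154), and it was 1.93 (SE 0.29; edgeR adjusted p = 0.00205) without R1 and R2 and 4.43 (SE 0.39; edgeR adjusted p = 0.00101) without R3 and R4.

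Glyma.19G164300.Wm82.a2.v1, on chromosome 19, had 67.7, 63.4, 115.9 and 68.5 CPM in BR1 to BR4, against 24.3 CPM in R3, 25.9 CPM in R4, 7.86 CPM in R1 and 2.36 CPM in R2. BR3 stood above the other BR libraries, and all 4 were above all R libraries. It rose by a log2 fold change of 2.19 (SE of 0.58; edgeR adjusted p = 0.0294). The call was lost without BR1, BR3, BR4 or R1 (edgeR adjusted p of 0.0590, 0.0777, 0.0578 and 0.0697).

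The remaining 8 members with all BR libraries at or above the lower of R3 and R4 were not called with all 8 libraries. All 10 members of this pattern were called higher without R3 and R4, the low pair by which they were chosen then being the only R libraries. One on chromosome 11 had 32.7, 41.2, 40.2 and 38.9 CPM in BR1 to BR4, against 22.0 and 18.7 CPM in R3 and R4 and 5.04 and 2.83 CPM in R1 and R2. The groups did not overlap, and the log2 fold change of 1.47 (SE 0.52) did not pass the threshold (edgeR adjusted p = 0.0746). It was called higher both without R3 and R4 (3.08, edgeR adjusted p = 0.000843) and without R1 and R2 (0.75, edgeR adjusted p = 0.00791), as were both members that rose with all 8 libraries. Another, on chromosome 14, had 44.2, 37.4, 35.0 and 37.5 CPM in BR1 to BR4, against 26 and 23.9 CPM in R3 and R4 and 8.58 and 8.36 CPM in R1 and R2. It gave 1.02 (SE 0.35; edgeR adjusted p = 0.0718).

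The BR libraries did not enter the score, though they entered the minimum mean of 5 CPM, and 2 members reached it only through BR. The standard deviation of log2(CPM + 1) over BR1 to BR4 had a median of 0.35 in the members and 0.20 in all eligible genes, and 121 of the 150 members were above that median of all eligible genes. Without those 2 members the median was also 0.35, and 119 of 148 were above that of all eligible genes. The highest BR library was less than 2-fold above the lowest in 91 members, or 60.7%, beside 88.4% of the eligible genes. BR4 was the highest BR library in 52 members, or 34.7%, beside 21.8% of the eligible genes. BR1 was the lowest in 52 members, also 34.7%, beside 33.1% of the eligible genes. Over R the median standard deviation was 1.16 in the members and 0.26 in the eligible genes, which the rule made so.

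The score took the lower of R3 and R4 and the higher of R1 and R2, which favoured members in which each pair agreed. The ratio of R4 to R3 had a median of 1.03 and lay within 1.5-fold in 124 members. It was 2-fold or more in either direction in 8 members and ranged from 0.127, in the fourth-ranked member on chromosome 6, to 2.73. R2 was the lower of the other pair in most members, since the ratio of R2 to R1 exceeded 1 in 33 of the 150 and had a median of 0.819. The shares over all eligible genes were not computed, so these counts are given as a description.

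Gene length was compared because the libraries differed in how counts followed it. A line of log2(CPM + 1), as the deviation from each gene's mean, against log2 length over the eligible genes had a slope of -0.156 to 0.0163 in BR, 0.157 and 0.158 in R3 and R4, and -0.0501 and -0.0572 in R1 and R2. Longer genes thus tended to be higher in R3 and R4. The members had a median length of 1910.5 bases (quartiles 1428 and 2648 bases), beside 1931 bases (1385 and 2645 bases) in all eligible genes. Genes of up to 1000 bases made up 7.33% of the members and 9.43% of the eligible genes. The part of the length slopes in the members' levels was not tested. Across the 150 members, which share the same libraries, score and length had a Spearman correlation of -0.22.

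Members lay on all 20 chromosomes, and 1 lay on an unplaced scaffold. Chromosome 6 held 16, or 10.7% of the members beside 5.77% of the eligible genes. Chromosomes 14 and 3 held 12 each, or 8%, beside 3.71% and 4.45% of the eligible genes. The fewest were on chromosome 12, with 2, or 1.33%, beside 4.39% of the eligible genes. These shares were not tested.

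A few members were neighbours in identifier order, which follows position along a chromosome. There were 5 such pairs within 3 places, of which 2 were directly adjacent. How many pairs other lists of eligible genes of this size would hold was not computed. A group of 3 members on chromosome 14 gave 3 of the pairs. Its first gene had 1.85, 2.31, 3.07 and 9.50 CPM in BR1 to BR4, 6.47 and 13.8 CPM in R3 and R4, and 1.83 and 1.96 CPM in R1 and R2. The second had 6.67, 7.87, 9.89 and 17.2 CPM in BR1 to BR4, 46.1 and 81.2 CPM in R3 and R4, and 9.89 and 9.31 CPM in R1 and R2. The third had 4.63, 11.9, 12.8 and 27.1 CPM in BR1 to BR4, 96.3 and 113.9 CPM in R3 and R4, and 34.2 and 32.3 CPM in R1 and R2. All 3 were highest among the BR libraries in BR4 and lowest in BR1, and R4 was above R3 in each. Their BR positions differed, with means of 0.339, 0.01 and -0.861. Counts of near-identical neighbouring copies, which are frequent in soybean, can be split between them, and whether these 3 genes are such copies was not tested. The adjacent pair on chromosome 6 had mean BR positions of 0.496 and 0.389, and its members had 64.9 and 56.4 CPM in R3.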

How the data were processed

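The authors deposited a table of raw counts and a table of FPKM, which are those counts scaled by gene length and library total, each with a column for every library. The submitters' processing notes name HTSeq 0.6.0, HISAT2 2.1.0, Bowtie2 2.2.3, CASAVA and TopHat2 without role or order. The identifiers carry the annotation suffix Wm82.a2.v1, and beyond it the genome build and strandedness are not given in the sources used here. Gene lengths were counts divided by FPKM and library total, which gave 1 length per gene within 0.1% for all 39910 genes with FPKM. None of the 43517 identifiers matched the RefSeq gene table (0 matched), so names, roles, sequences and gene family lists were not used.

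The test of the counts was that of edgeR 4.0.16 (R 4.3.3) over all genes kept by filterByExpr (minimum count 10, minimum total 15), with TMM factors, the quasi-likelihood F test without covariates and Benjamini-Hochberg adjustment. Standard errors are fold changes over the square root of F. The test was tried on simulated data drawn without a difference in mean between the R pairs, so nothing about the members is read from that trial. Limma 3.58.1 and DESeq2 1.42.0 were alternatives. The TMM factors of BR lay from 1.05 to 1.10 and those of R from 0.913 to 0.951. Any 2 libraries of a group differed by a chi-square of at least 7.20 per degree of freedom, above counting noise. The members and the way of naming genes were chosen with earlier results of these data known. The rule for named genes took the members with the highest scores, the most abundant, and the called ones with the largest fold in each direction. Because no names were found, identifiers are printed for 2 members per direction and the others are given by rank and chromosome. Without names the rule allowed at most 2 members by score and 2 called members per direction. The members described beyond it were the most abundant ones, the last inside the score limit, and others chosen after their values were seen. These others were the fourth-ranked member, rank 10, the sixth in abundance, the uncalled ones on chromosomes 11 and 14, and the neighbours.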

Additional observations from a re-analysis of the deposited data

Results flagged for a closer look

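Within each group of 4 libraries, member values were searched for a library far from the other 3, in 34 groups of values. The search flagged 4. Chance flags about 1 in 20, but this rate does not hold for the R groups. The choice of members set R3 and R4 above R1 and R2 there, so the flag in R is a description only. BR4 was nearer to R1 and R2 in 66% of the members, where the other BR libraries had 69.3% to 70%. BR3 had 115.9 CPM of Glyma.19G164300.Wm82.a2.v1, where the other BR libraries had 63.4 to 68.5 CPM. R3 had 120.6 CPM of the fourth-ranked member on chromosome 6, where R4 had 15.3 CPM, R1 1.24 CPM and R2 0.472 CPM. BR1 had 259.9 CPM of the fifth most abundant member, on chromosome 1, where the other BR libraries had 177.5 to 189.4 CPM.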

How the results depend on the processing

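Fewer than 10 counts in at least 1 library were found in 4 members (3 in a BR library, 3 in an R library), and counting error limits these values. The 43 called members, 41 lower and 2 higher in BR, numbered 15 to 78 when 1 library was left out (14 to 76 lower, 1 to 4 higher), and calls over all genes then numbered 2848 to 7333 in place of 5409. With R3 and R4 left out there were 3554 calls over all genes and 53 among members (43 higher, 10 lower), and with R1 and R2 left out 10237 and 122 (3 higher, 119 lower). Limma-voom called 22 members (4 higher, 18 lower) and DESeq2 65 (5 higher), beside 5328 and 7204 genes in all. RLE factors, upper-quartile factors, total counts and the other filters gave 35 to 47 called members, within 1.5 times of 43. Calls over all genes then numbered 4410 to 6030. Higher genes made up 43.5% of all calls with TMM, 57.7% with upper-quartile factors and 71.2% with total counts, and the median over all tested genes was -0.02, 0.09 and 0.18 on the log2 scale; 35 and 32 members were then lower and 3 higher under each. The causes were not tested.

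A replicate block on the library numbers called 40 members, 4 higher and 36 lower, 34 of them in common with the fit without it, and 4633 genes in all. Same-numbered libraries deviated together with correlations of 0.07, 0.09, -0.08 and 0.09, and not every library correlated best with its own number, so the numbers were not taken as pairs.

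The share of members with BR nearer to R1 and R2, 68.7%, was 65.3% with a pseudocount of 0.1, 71% with 5, 71.3% and 63.2% with a minimum mean of 1 and 10 CPM, 72.2% with TMM-scaled CPM, and 68.2% to 69.6% without 1 BR library. Scaling by TMM, chosen after seeing the data for this count, gave 6 in place of 10 members with all BR libraries at or above the lower of R3 and R4, and 48 in place of 32 with all at or below the higher of R1 and R2. The log2 fold change of the member of rank 2 was -2.58, not called; it was 1.10 without R3 and R4 (edgeR adjusted p = 0.314), and it was called without R2 (-2.98) and without R1 and R2 (-3.51).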
